A study of Mus musculus with 14 samples.

Results

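Metallothionein 1 (Mt1) and metallothionein 2 (Mt2) code for small cysteine-rich proteins that bind zinc, copper and cadmium. Both genes were represented by 1 probe set each on the Affymetrix Murine Genome U74v2 array, 93573_at for Mt1 and 101561_at for Mt2. The probe sets of these 2 genes, of 8251 distinct symbols in the platform annotation, were found by their single gene symbol. The genes themselves were chosen on their signals in control lung and lung tumors, which were known beforehand, so that their levels and fold changes are given as a description and without a test. The arrays, 14 in all, measured RNA of mouse lung and of lung tumors induced by the oncogene c-Myc. Control lung came from 4 non-transgenic mice, and the tumors came from SPC/myc transgenic mice, hemizygotes that express c-Myc in alveolar epithelium from the surfactant protein C (SPC) promoter. All mice were of the CD2F1-(DBA/2xBalb/C) strain and 9 to 13 months old. There were 3 pools of small tumors (3 to 4 tumors of 1 mm from the same animal), 4 middle-sized tumors of 4 to 5 mm and 3 large tumors of 10 mm or more, each from its own animal. The controls were whole lung whereas the tumors had been cut out of the surrounding tissue, and the same 4 control lungs served every tumor size. A signal below is the MAS 5.0 expression value of a probe set, a linear intensity without unit that was scaled to a mean of 250 on each array.

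Metallothioneins buffer intracellular zinc and copper and scavenge reactive oxygen species. Transcription of Mt1 and Mt2 is driven by the zinc-sensing factor Mtf1, which binds metal response elements near the start of each gene, and it also answers to glucocorticoids, to inflammatory cytokines and to oxidative stress. In the lung the alveolar epithelium is among the cells known to express them, while Mt3 is best known from brain and Mt4 from stratified squamous epithelium. In the RefSeq annotation the 4 genes lie side by side on mouse chromosome 8 in the order Mt4, Mt3, Mt2, Mt1, with Bbs2 before and Nup93 after them.

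The sequences next to the starts of Mt1 and Mt2 are shown because these genes are a classical target of Mtf1, whose own signal and whose other targets are given further on. The sequences are from RefSeq on the build GRCm38.p6, 5′ to 3′ on the plus strand, and both genes were found in the promoter table. Capitals mark the core of the metal response element, searched as TGCACNC or TGCGCNC on both strands. A capital run that begins with G is a match on the minus strand.
Mt1, 250 bases before the start, chr8:94178839-94179088: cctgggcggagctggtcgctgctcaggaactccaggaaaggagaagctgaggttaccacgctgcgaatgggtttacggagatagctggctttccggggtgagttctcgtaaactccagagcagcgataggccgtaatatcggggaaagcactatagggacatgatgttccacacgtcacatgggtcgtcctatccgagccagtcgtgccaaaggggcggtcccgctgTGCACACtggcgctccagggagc
Mt1, first 27 bases from the start: tcTGCACTCcgcccgaaaagTGCGCTC
Mt2, 250 bases before the start, chr8:94172368-94172617: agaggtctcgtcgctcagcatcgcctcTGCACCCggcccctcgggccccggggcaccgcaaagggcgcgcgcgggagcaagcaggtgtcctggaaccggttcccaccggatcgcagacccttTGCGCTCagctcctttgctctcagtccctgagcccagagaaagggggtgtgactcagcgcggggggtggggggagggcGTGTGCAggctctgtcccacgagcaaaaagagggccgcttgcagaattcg
Mt2, first 11 bases from the start: ggtcGTGCGCA

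In windows of 300 bases, from 250 bases before to 50 bases after the start, Mt1 held 3 matches and Mt2 held 4, none of which overlapped another. The 3 matches of Mt1 lay at positions -23, 3 and 21 from the gene start, so only 1 of them was upstream of the annotated start. The 4 matches of Mt2 began at -223, -128, -50 and 5, with 2 of them on each strand. A window held at least 1 match in 25.7% of 32851 promoters, at least 3 in 1.97% and at least 4 in 0.517%. Of the other genes of the family, Mt3 and Mt4 held 1 match each. Slc30a1, which exports zinc and is a target of Mtf1, held 2 matches, a count reached by 7.11% of promoters. The E-box CACGTG, bound by c-Myc with its partner Max, was found in neither metallothionein window and in 7.15% of all promoters. The core of the antioxidant response element, TGACNNNGC, was found once in Mt2, not in Mt1, and in 12.4% of promoters. These matches describe letters in these windows and do not show binding. Sequence beyond the windows was not searched and no other start of a gene was considered. An element outside the windows would therefore not be seen.

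Mt1 and Mt2 had higher signals in every tumor than in every control lung. For Mt1 the control lungs gave signals of 747, 676, 467 and 655 in replicates 1 to 4. The small tumor pools gave Mt1 signals of 4713, 3550 and 3214. The middle tumors gave 2220, 3558, 3801 and 6008, and the large tumors 3741, 5018 and 4743. Control lung and tumors did not overlap, and the lowest tumor, middle tumor 1, was still 2.97-fold above the highest control lung. The mean Mt1 signal was 636 ± 119 in control lung (SD, n = 4) and 4057 ± 1074 over all tumors (SD, n = 10), a ratio of 6.38.

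For Mt2 the signals in control lung were 1330, 1121, 795 and 993 in replicates 1 to 4. The small tumor pools gave Mt2 signals of 7531, 6014 and 5591. The middle tumors gave 4199, 5095, 6873 and 8691, and the large tumors 5991, 9708 and 7051. As for Mt1, the groups did not overlap and middle tumor 1 was the lowest tumor, at 3.16-fold the signal of the highest control lung. The mean Mt2 signal was 1060 ± 225 in control lung (SD, n = 4) and 6674 ± 1663 over all tumors (SD, n = 10), a ratio of 6.30. The samples are bulk tissue, in which a change in the number of cells that express a gene and a change in RNA per cell cannot be told apart. The same control lungs were at the ends for both genes, with replicate 3 lowest and replicate 1 highest. A signal above every control lung in every tumor was seen for 11.0% of the 6914 probe sets tested, and this share stands beside the 2 genes as background only, since their signals chose them. Probe sets differ in how strongly they bind their target, so the levels of Mt1 and Mt2 cannot be set against each other. The transcripts of the pair are alike in sequence, and cross-hybridization between the probe sets was not tested.

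**Figure D1:**
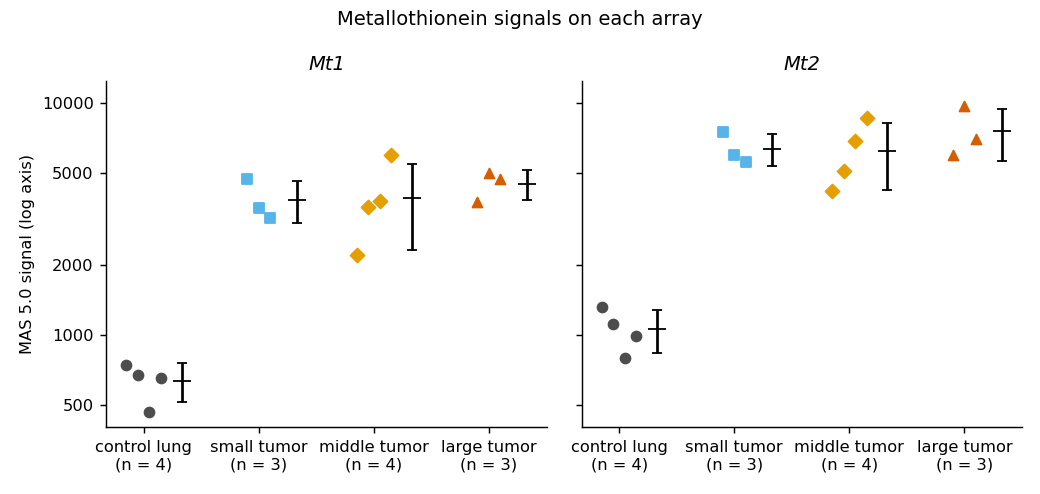
MAS 5.0 signals of Mt1 (left) and Mt2 (right) on a log axis for each of 14 arrays, grouped by control lung and tumor size, with points for arrays and black bars for the mean ± SD of each group. Every tumor lies above every control lung for both genes, the lowest being middle tumor 1 at 2220 for Mt1 and 4199 for Mt2, and the 3 tumor sizes overlap.

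The metallothionein signals of the 3 tumor sizes overlapped. The mean Mt1 signal was 3826 ± 787 in small (SD, n = 3), 3897 ± 1570 in middle (SD, n = 4) and 4501 ± 672 in large tumors (SD, n = 3), which is 6.01, 6.13 and 7.08 times that of control lung. The mean Mt2 signal was 6379 ± 1020 in small (SD, n = 3), 6215 ± 1990 in middle (SD, n = 4) and 7583 ± 1915 in large tumors (SD, n = 3), or 6.02, 5.86 and 7.16 times control lung. In order of mean level, large tumors came first for both genes, and small and middle tumors changed places between Mt1 and Mt2. By geometric means small tumors stood above middle tumors for both genes, at 6.02 against 5.85 times control lung for Mt1 and 6.07 against 5.74 times for Mt2. None of these neighbours differed beyond their spread. Large tumors exceeded small ones by 675 for Mt1 and by 1205 for Mt2, less than the larger SD of the compared groups, 787 and 1915. Large tumors exceeded middle tumors by 604 for Mt1 and by 1368 for Mt2, against SDs of 1570 and 1990, and the range of every size overlapped that of the other sizes. Already the tumor pools of 1 mm thus gave metallothionein signals within the range of the larger tumors. The 3 comparisons with control lung share the control arrays and are not independent.

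The widest spread of the metallothioneins lay among middle tumors, where the highest signal was 2.71 times the lowest for Mt1 and 2.07 times for Mt2. Among large tumors these ratios were 1.34 and 1.62, and among small tumor pools 1.47 and 1.35. Over all 4 groups the SD of the log2 signal within groups was 0.40 for Mt1 and 0.36 for Mt2, against a median of 0.29 over all probe sets tested. A smaller SD than theirs was found for 77.2% and 70.5% of probe sets. By size of the change on the log2 scale, Mt1 and Mt2 ranked 14 and 15 of the 6914 probe sets among increases in all tumors. They ranked 30 and 28 in small, 15 and 16 in middle and 16 and 15 in large tumors. Signals below 70 were set to 70 for this ranking, which lessens the rise of genes below 70 in control lung but not that of Mt1 and Mt2. The ranks are a description, since these signals chose the genes.

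Mt1 and Mt2 moved together from array to array. Over 14 arrays the log2 signals had a Pearson's r of 0.99 and a Spearman's rho of 0.97, a value that mostly reflects the gap between lung and tumors. Among the 10 tumors alone r was 0.92 and rho 0.92, and r was 0.87 without the 2 tumors farthest from the median, middle tumors 1 and 4. With the mean of each size subtracted, r was 0.91 and rho 0.90 (n = 10), and r was 0.83 without the same 2 tumors. Both signals of a pair come from the same RNA, array and scaling, and no p is given for genes chosen in this way. The ratio of Mt1 to Mt2, taken relative to its mean in control lung on the log2 scale, ranged from -0.10 to 0.13 in control lung and from -0.22 to 0.21 in tumors. Its mean over tumors was 0.01 with an SD of 0.16 (n = 10), so the balance between the probe sets in tumors was that of control lung within its spread. The extremes among tumors were middle tumor 2, with the highest Mt1 relative to Mt2, and large tumor 2, with the lowest.

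**Figure D2:**
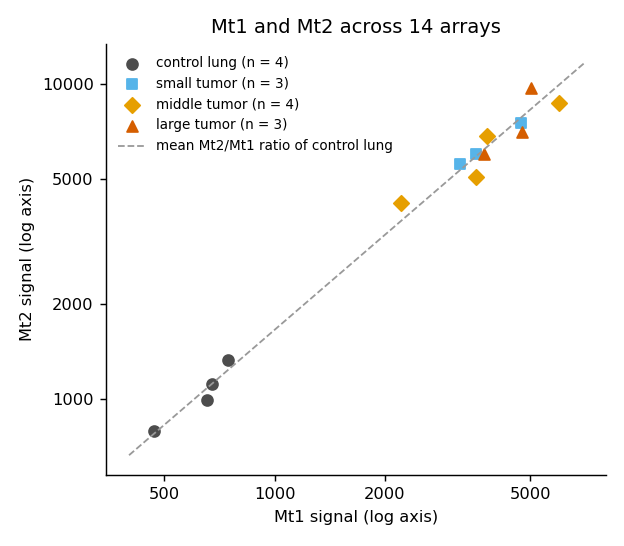
Mt2 signal against Mt1 signal, both on log axes, with 1 point for each of 14 arrays, colored by group, and a dashed line at the mean ratio of the 4 control lungs. Lung and tumors form separate groups along the same line, with tumors within -0.22 to 0.21 of it on the log2 scale.

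The other metallothioneins were compared with a limma fit across 6914 probe sets, in which a gene was called at a Benjamini-Hochberg adjusted p under 0.05 and log2 fold changes are of signals set to at least 70. In that fit 23.6% of probe sets were higher and 21.0% lower in all tumors than in control lung, with a median log2 fold change of 0.04. With each array scaled to 1 median, 30.4% were higher and 17.4% lower, and the median was 0.15. Since signals below 70 were set to 70, the log2 fold change of a gene that crosses this floor understates its change. Mt3 rose, with signals of 407, 565, 519 and 609 in control lung, 788, 414 and 704 in small, 734, 772, 1287 and 652 in middle and 797, 1151 and 865 in large tumors. Small tumor 2 lay within the range of control lung, and the other 9 tumors lay above it. The log2 fold change of Mt3 in all tumors was 0.58 (SE 0.20, limma adjusted p = 0.0287). By size it was 0.24 in small (limma adjusted p = 0.516), 0.68 in middle (limma adjusted p = 0.0435) and 0.83 in large tumors (limma adjusted p = 0.0204), and differences between sizes did not pass the threshold. The call of Mt3 in all tumors was lost in 7 of 26 alternatives, among them the fit with the replicate number as a block, where the adjusted p was 0.0559, and without control lung 1 or 3 or small tumor 1 or 3, with limma adjusted p-values of up to 0.117. Mt4 had signals below 10 on all arrays except control lung 1, at 70.2, and was not tested.

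Of 21 genes listed for zinc transport and Mtf1, 13 were tested, of which 1 rose (7.69%), 3 fell (23.1%) and 9 were not called. Their median log2 fold change was -0.10. With each array scaled to 1 median, 2 rose and 3 fell, and the median was 0.03. Mtf1, the metal-sensing activator of both genes, had a signal of 127 ± 17.3 in control lung (SD, n = 4) and 139 ± 29.9 in tumors (SD, n = 10), with a log2 fold change of 0.13 (SE 0.17, limma adjusted p = 0.565). Slc30a1 had 82.5 ± 8.07 (SD, n = 4) and 60.7 ± 27.3 (SD, n = 10), near the floor of 70, and a log2 fold change of -0.11 (SE 0.13, limma adjusted p = 0.518). The largest change of the list was that of Slc39a8, a zinc importer of the plasma membrane, which fell. Its signal was 763 to 930 in control lung, 166 to 349 in small, 106 to 416 in middle and 76.7 to 107 in large tumors, and no tumor reached the lowest control lung. The log2 fold change was -2.32 (SE 0.33, limma adjusted p = 5.11e-05). The importers Slc39a6 (log2 fold change -0.79, limma adjusted p = 0.00166) and Slc39a3 (-0.51, limma adjusted p = 0.000236) fell as well, the latter with 5 of 10 tumors below the floor. Slc30a5, which loads zinc into the secretory pathway, rose by 0.64 (limma adjusted p = 0.0208), a call lost without control lung 1 or 2, with adjusted p-values of up to 0.104.

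Genes of zinc-dependent enzymes abundant in lung mostly fell. Their list was made of enzymes abundant in lung, the tissue of the controls, and does not stand for zinc-dependent enzymes in general. Of 11 that were tested, 9 fell (81.8%) and none rose, against 9 and 1 with each array scaled to 1 median. Their median log2 fold change was -1.39. Among them were angiotensin-converting enzyme Ace (-3.55, limma adjusted p = 3.75e-09), the carbonic anhydrases Car4 (-2.89, limma adjusted p = 2.45e-07) and Car2 (-2.65, limma adjusted p = 5.38e-06) and extracellular superoxide dismutase Sod3 (-2.26, limma adjusted p = 1.38e-05). Ace and Car4 are known from capillary endothelium, and 10 of 11 endothelial markers fell, whose part in these changes was not tested. Of 16 genes tested for copper and iron handling, 3 rose (18.8%) and 1 fell (6.25%). With each array scaled to 1 median 5 rose and none fell. Lcn2, which captures the iron carriers of bacteria, rose with a log2 fold change of 2.42 (limma adjusted p = 8.02e-06), but without a call where values of 0 on 1 array were kept (limma adjusted p = 0.0735). The copper chaperone Atox1 (0.48, limma adjusted p = 0.0246) and Commd1 (0.54, limma adjusted p = 0.0262), which acts in copper export, rose, and the iron-binding Ltf fell (-1.40, limma adjusted p = 0.0444). Ltf lost its call in 14 of 26 alternatives, with adjusted p-values of up to 0.128, Commd1 in 5, with up to 0.0677, and Atox1 in 2, with up to 0.109. Without control lung 1 or without control lung 2, 1 gene of the list was called in place of 4.

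Stimuli known to induce Mt1 and Mt2 were followed through lists of genes of these responses, with their receptors and regulators. Of 18 glucocorticoid-inducible genes tested, 10 fell (55.6%) and 3 rose (16.7%), with a median of -0.78. Over all probe sets tested 21.0% fell and 23.6% rose. The controls were whole lung, and the part of its cell types in the changes of this list was not tested. Hsd11b1, which forms active glucocorticoid within cells, fell with a log2 fold change of -3.14 (limma adjusted p = 9.67e-07), and Sgk1 (-2.13, limma adjusted p = 1.62e-05) and the glucocorticoid receptor Nr3c1 (-0.81, limma adjusted p = 0.00208) fell too. Zbtb16 fell by 2.09 on the log2 scale (limma adjusted p = 0.0491), a call lost in 17 of 26 alternatives, with an adjusted p of up to 0.163. Against this direction, Ddit4 (1.30, limma adjusted p = 4.15e-05), Cdkn1c (1.32, limma adjusted p = 0.00234) and Lcn2 rose. Nr3c1 was named after its values were seen.

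Of 19 acute phase genes and genes of IL-6 signaling, 3 rose (15.8%), 5 fell (26.3%) and 11 were not called, with a median of -0.12. These shares were near those of all probe sets tested, 23.6% higher and 21.0% lower. Besides Lcn2, which stands in this list too, Itih4, a plasma protein, rose with a log2 fold change of 2.22 (limma adjusted p = 0.00286) and the lipopolysaccharide-binding protein Lbp with 0.94 (limma adjusted p = 0.00468). The shared IL-6 receptor subunit Il6st (-2.10, limma adjusted p = 7.73e-08) and the protease inhibitor Serpina3n (-1.80, limma adjusted p = 0.000128) fell. Of 18 genes of the NRF2 and oxidative stress response, 4 rose (22.2%) and 6 fell (33.3%), with a median of 0.08. This split turned with each array scaled to 1 median, where 6 rose and 4 fell. The thioredoxin system genes Txn1 (0.59, limma adjusted p = 0.000735) and Txnrd1 (0.65, limma adjusted p = 0.00308), the carbonyl reductase Cbr1 (0.72, limma adjusted p = 0.000523) and glutathione reductase Gsr (0.40, limma adjusted p = 0.0275) rose. Gsr lost its call in 5 of 26 alternatives, with adjusted p-values of up to 0.879. Sod3, the aldehyde dehydrogenase Aldh3a1 (-2.19, limma adjusted p = 7.57e-05), the glutathione peroxidase Gpx2 (-1.35, limma adjusted p = 6.31e-05) and the autophagy receptor Sqstm1 (-0.75, limma adjusted p = 0.000471) fell.

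Of 13 heat shock genes, 4 rose (30.8%) and 2 fell (15.4%), with a median of -0.37. The median turned to 0.19 without control lung 4, where 4 rose and 1 fell. The mitochondrial chaperonins Hspd1 (1.11, limma adjusted p = 5.25e-06) and Hspe1 (1.20, limma adjusted p = 0.001) rose, whereas the small heat shock protein Cryab (-2.13, limma adjusted p = 2.25e-06) and the co-chaperone Bag3 (-0.99, limma adjusted p = 0.0116) fell. The call of Bag3 was lost without control lung 4 and with the unpaired test of the methods, with adjusted p-values of up to 0.0515. Hspa1a, the stress-inducible Hsp70, gave 6128 in control lung 4 against 235 to 297 in the other control lungs and 112 to 679 in tumors. Hspa1b, a near-identical Hsp70, gave 4577 there against 168 to 247, and the co-chaperone Dnajb1 1654 against 250 to 274. These 3 genes were named after their values were seen. The metallothioneins of control lung 4 were not raised with it, at 655 for Mt1 and 993 for Mt2. Of 17 hypoxia genes, 7 rose (41.2%) and 3 fell (17.6%), with a median of 0.28. Lactate dehydrogenase Ldha (1.79, limma adjusted p = 2.15e-07), hexokinase Hk2 (1.68, limma adjusted p = 1.34e-05) and the repressor Bhlhe40 (1.54, limma adjusted p = 2.43e-05) rose, while Epas1, which codes for Hif2α (-2.22, limma adjusted p = 1.29e-06), Vegfa (-1.08, limma adjusted p = 0.00412) and adrenomedullin Adm (-0.58, limma adjusted p = 0.0124) fell. Adm was below the floor in 9 of 10 tumors, with a signal of 114 ± 40.6 in control lung (SD, n = 4) and 34.3 ± 29.2 in tumors (SD, n = 10).

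**Figure D3:**
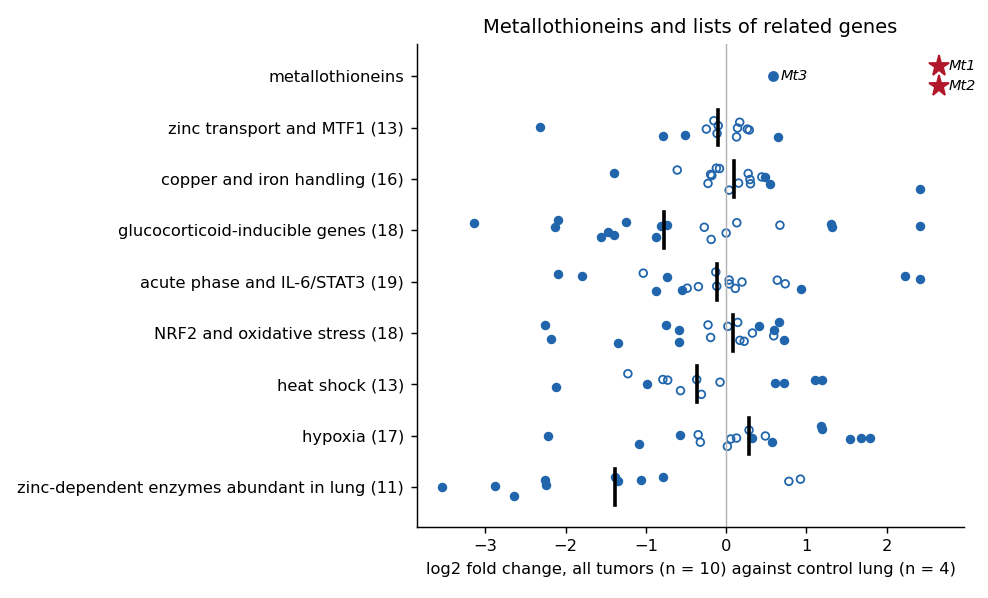
Log2 fold change in all tumors (n = 10) against control lung (n = 4) for Mt1 and Mt2 (stars), Mt3 and the tested genes of 8 lists, with the number of genes in brackets. Filled points passed the limma threshold, open points did not, and black bars are medians, which lie between -1.39 and 0.28.

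The tissues compared differed in their cells. Summed signals of 11 endothelial markers were 20657 to 25976 in control lung and 1887 to 3439 in tumors, and markers of alveolar type I cells (4 of 4), smooth muscle (6 of 6), cardiac muscle (6 of 6), erythroid cells (3 of 3), mesothelium (2 of 2) and fibroblasts (6 of 9) fell. None of 4 club cell markers was called, and the 1 ciliated marker tested, Foxj1, fell. It was at 394 to 695 in control lung and at 1116 in middle tumor 1, against 76.7 to 293 in the other tumors. Of immune markers, 3 of 4 for neutrophils, 3 of 6 for lymphocytes and 2 of 6 for macrophages fell. Of 5 markers of alveolar type II cells, in which the SPC promoter is active, 1 rose and none fell, and the summed signals of 4 of them were 15881 to 24614 in control lung and 15932 to 30083 in tumors. Surfactant protein C itself, Sftpc, had 9806 ± 2846 in control lung (SD, n = 4) and 9382 ± 884 in tumors (SD, n = 10). Of the markers of hepatocytes, which are rich in metallothioneins, Ttr, Apoa1, Apoa2, Fabp1, Ahsg and Tat were below the filter, Alb was at 17.4 to 164 in tumors and 36.3 to 51.9 in control lung (limma adjusted p = 0.0773, called in 6 of 26 alternatives), and Cyp2e1 fell (-1.18, limma adjusted p = 0.0018). The part of these cell types in the metallothionein signals was not tested. Myc, the gene of the transgene, had 24.1 to 35.6 in control lung and 325 to 2165 in tumors.

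Within the tumors, the mean log2 signal of Mt1 and Mt2 was set beside summed markers of 3 cell types. The other cell types were not compared in this way, so the values do not single out these 3. For 6 macrophage markers r was -0.76 and rho -0.87 over 10 tumors, and r was -0.70 without the 2 tumors farthest from the median of the metallothionein values. The sums covered a narrow range, 1903 to 2658, and overlapped those of control lung, 2301 to 2544. For endothelial markers r was -0.47 (rho -0.44, r without the 2 tumors -0.27), and for type II cell markers r was -0.49 (rho -0.61, r without the 2 tumors -0.31). Middle tumor 1, the lowest tumor for Mt1 and Mt2, also had the lowest Myc signal of all tumors, 325. It had the highest sums for macrophages, 2658, and for lymphocytes, 435. Middle tumor 4, the highest for Mt1, had a Myc signal of 760, a macrophage sum of 2015 and the lowest lymphocyte sum of all tumors, 229. Their part in the metallothionein levels was not tested.

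The genes whose signals were most like the metallothioneins were ranked by Pearson's r with the mean log2 signal of Mt1 and Mt2, over 5124 probe sets with a symbol and no missing value. Over 14 arrays the highest were Dtnb (0.97), Trip6 (0.97), Mtm1 (0.97), Shmt1 (0.97), Serf1 (0.97), Dctpp1 (0.97), Pex11a (0.97), Elf5 (0.97), Tob1 (0.96) and Dnajc2 (0.96). All 10 rose in tumors by the limma test. A ranking over lung and tumors together favors such genes, so these calls are no separate result. Trip6, a LIM domain adaptor, went from 247 ± 19.0 in control lung (SD, n = 4) to 601 ± 98.2 in tumors (SD, n = 10), and its lowest tumor was also middle tumor 1, at 426. Shmt1, an enzyme of one-carbon metabolism, went from 67.4 ± 8.42 to 538 ± 188, Dctpp1, which hydrolyses dCTP, from 67.9 ± 25.2 to 656 ± 183, and the epithelial transcription factor Elf5 from 227 ± 35.5 to 1347 ± 330. Mtm1 had the widest step, from 145 ± 28.0 to 3833 ± 1534, on a probe set with the suffix _f_at that Affymetrix gives to probes shared between related transcripts. The lowest values were those of the guanylate cyclase subunit Gucy1b1 (-0.98), the repressor Zeb1 (-0.98), Tcf21 (-0.98), a factor of lung mesenchyme, and the endothelial receptors Acvrl1 (-0.98) and Flt4 (-0.98). These values follow the gap between lung and tumors, with 162 probe sets at 0.9 or above and a median r of 0.04. Mt3 reached 0.60, Mtf1 0.14 and Slc30a1 -0.15.

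**Figure D4:**
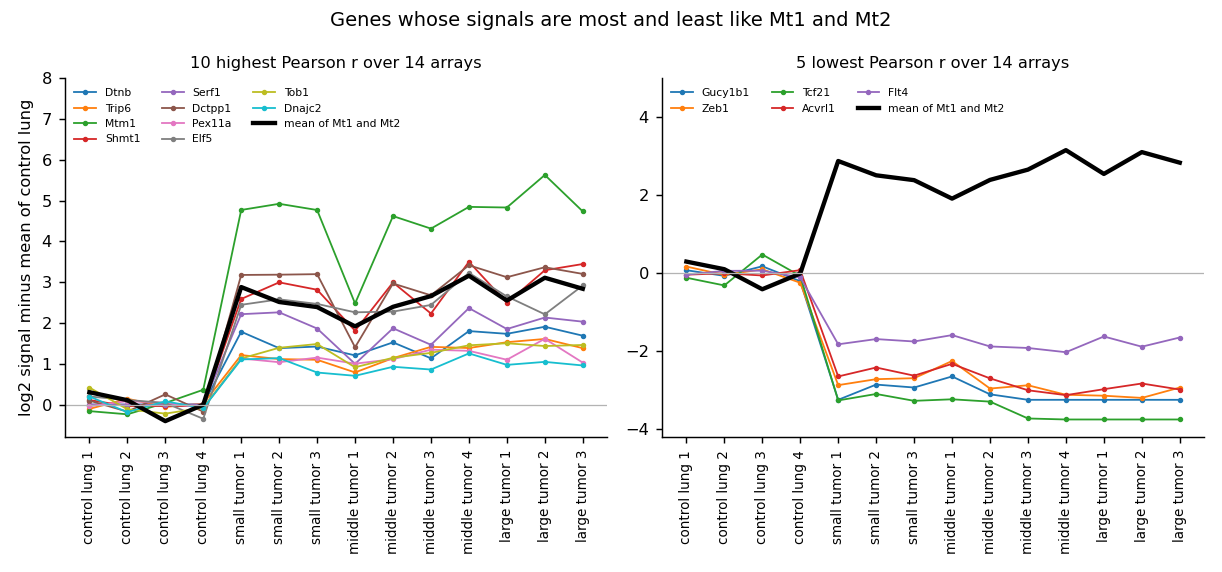
Log2 signal minus the mean of control lung for each of 14 arrays, for the mean of Mt1 and Mt2 (black) with the 10 genes of highest r (left) and the 5 genes of lowest r (right). Among tumors the metallothioneins are lowest at middle tumor 1, as are Trip6 at 426 and Dctpp1 at 209.

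With the mean of each tumor size subtracted, which removes that gap, another set of genes came first. Tomm34, a factor of mitochondrial protein import, had the highest r with the metallothioneins, 0.98 over 10 tumors, followed by Ets2 (0.95), Eif3k (0.94), Use1 (0.93), Gtf3a (0.93), Rrp1 (0.92), Pter (0.92), Srsf5 (0.92), Tdrp (0.91) and Prss30 (0.91). The median r was -0.05, and 16 probe sets reached 0.9. Tomm34 was at 132 in middle tumor 1 and at 382 in middle tumor 4, the tumors lowest and highest in Mt1, and at 330, 292 and 254 in the small tumor pools, in the order of their metallothionein signals. Unlike Mt1 and Mt2, however, Tomm34 did not set tumors apart from lung, with 344 ± 117 in control lung (SD, n = 4) and 322 ± 117 in tumors (SD, n = 10, log2 fold change -0.06, limma adjusted p = 0.875). The transcription factor Ets2 followed the metallothioneins among tumors and yet fell against control lung (-1.10, limma adjusted p = 3.31e-05), as did Tdrp (-1.37, limma adjusted p = 1.67e-07). Signals of Tdrp in tumors were near the floor of 70. The large tumors, at 69.7, 69.7 and 67.4, were all set to 70, so its r rests on the small and middle tumors. Eif3k, a subunit of a translation initiation factor, rose (0.70, limma adjusted p = 0.000734) and combined an r of 0.94 within size with one of 0.94 over 14 arrays. Mt3 had an r of 0.21 within size, Mtf1 -0.46 and Slc30a1 0.28. These correlations are over few tumors that share array and scaling and are a description. They are the most extreme of the 4986 probe sets that had an r within size.

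**Figure D5:**
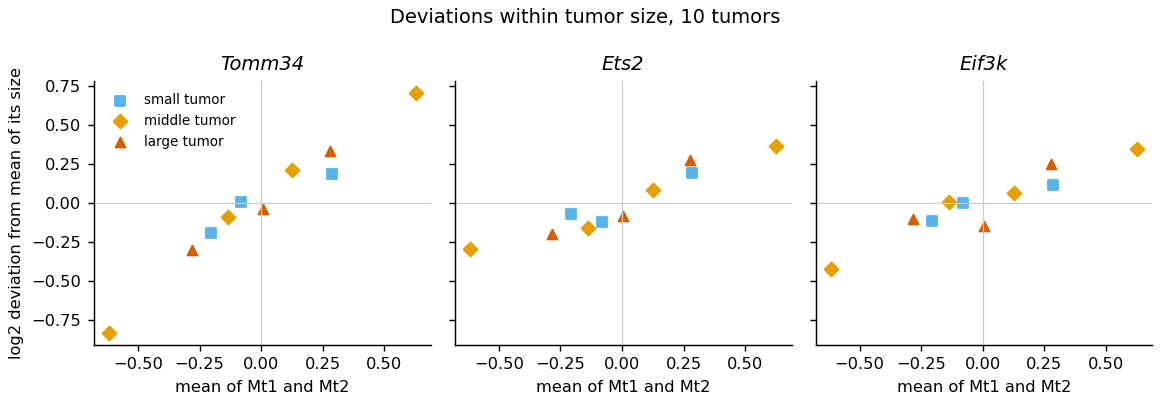
Deviation of the log2 signal from the mean of its tumor size for Tomm34, Ets2 and Eif3k (vertical axes) against that of the mean of Mt1 and Mt2 (horizontal axes), with 1 point for each of 10 tumors. The points rise together with r of 0.98, 0.95 and 0.94, and the ends are middle tumors 1 and 4.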

How the data were processed

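RNA of 14 samples was hybridized to 1 array each, and p-values rest on separate animals. The authors scaled the arrays in GCOS to a target of 250 and deposited MAS 5.0 signals, a linear intensity. Of 12488 probe sets, 66 controls were left out, and 10833 of the other 12422 had 1 symbol, 396 several and 1193 none in the platform annotation. On middle tumor 3, 25.2% of values were at 0 or below 1e-06 and were treated as missing (neither Mt1 nor Mt2), a choice made after seeing the data. Probe sets at 70 or above numbered 6796 to 7575 per array, and 5630 on middle tumor 3. Replicates of a group correlated at 0.910 to 0.988, and no arrays were identical. Array number limits the precision.

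Signals were set to at least 70, put on the log2 scale, kept where at least 3 arrays reached 70, and cut to the probe set of highest mean for each symbol, which left 6914. The 4 groups were modelled with limma 3.58.1 under R 4.3.3, its spread following a trend with the mean level and its p-values adjusted after Benjamini-Hochberg, and the procedure was tested on simulated data. All tumors means the mean of the 3 sizes. Ratios of Mt1 and Mt2 are of group means, except where geometric means or the block for replicate number are named. Members and lists were chosen with earlier results of these data known. Named genes are Mt1 to Mt4, Mtf1, Slc30a1, for each list the 4 largest called changes and genes called against its main direction, and the most alike genes, and a few genes beyond this rule are marker genes or are said to be named after their values were seen. Alternatives were other floors, filters and scalings, all probe sets of a gene, a robust spread, a block for replicate number, weighted arrays, the unpaired test of the methods, each array left out and, added after seeing the data, values of 0 kept. Motif searches and summaries used Python 3.11.15.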

Additional observations from a re-analysis of the deposited data

Results flagged for a closer look

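Mt1 and Mt2 themselves held no array that stood apart within its group. Among 76 genes, Mt1 and Mt2 included, 220 gene groups were checked for a sample far from the others, which chance finds in about 1 of 20, and 20 were found. None of the other 74 genes differed between tumor sizes by the limma test.

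Several of these lay in middle tumor 1, the lowest tumor for Mt1 and Mt2. There Dctpp1 was at 209 against 506 to 843 in the other tumors, Zeb1 at 159 against 82.6 to 117, Cdkn1c at 2234 against 448 to 1342, Aldh3a1 at 356 against 56.9 to 188 and Dnajb1 at 583 against 168 to 347, or 171 to 219 among middle tumors. Middle tumor 3, the array with missing values, had Sgk1 at 844 against 141 to 445, Serpina3n at 976 against 207 to 395 and Adm at 113 against 14.4 to 47.2 in the other tumors, and 22.7 to 26.4 among middle tumors. Middle tumor 4, the highest for Mt1, had Ltf at 1052 against 10.8 to 327 in all other tumors, and among middle tumors Vegfa at 684 against 322 to 358 and Elf5 at 2107 against 1078 to 1223. Large tumor 2, the highest for Mt2, had Pex11a at 648 against 425 to 539.

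In control lung, replicate 3, the lowest for Mt1 and Mt2, had Itih4 at 332 against 131 to 150 and Adm at 174 against 87.5 to 97.7, and replicate 2 had Gsr at 668 against 448 to 483. Replicate 4 had Hspa1a at 6128 against 235 to 297, Hspa1b at 4577 against 168 to 247 and Dnajb1 at 1654 against 250 to 274.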

How the results depend on the processing

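The ratios of Mt1 and Mt2 moved by less than the spread between replicates under geometric means, scaling to 1 median, quantile normalization and the block. With each array left out in turn, Mt1 ranged from 5.86 to 6.77 in all tumors, 5.32 to 6.49 in small, 5.02 to 7.005 in middle and 6.50 to 7.67 in large tumors, and Mt2 from 5.81 to 6.88, 5.48 to 6.58, 5.09 to 6.50 and 6.15 to 7.91. Replicate numbers did not pair the samples (r of -0.21 to 0.12 over 19 pairs with the same number). With the replicate number as a block the ratios in all tumors were 6.69 for Mt1 and 6.52 for Mt2. These 2 ratios come from the fitted log2 fold changes and are not ratios of arithmetic group means. In that fit 2928 probe sets were called against 3083. Scaling to 1 median moved the median log2 fold change of all probe sets from 0.04 to 0.15. For copper and iron handling, 4 genes called became 2 without the filter, 2 with values of 0 kept, 7 with array weights and 1 to 5 with an array left out, 1 without control lung 1 or 2. The cause was not tested. The other lists stayed within 1.5 times their total counts, but their splits and medians moved as given beside them. Of 74 named genes other than Mt1, Mt2 and Mt4, 63 kept their side of the threshold in up to 26 alternatives, 11 changed it and none that was called reversed. The number of arrays and signals near the floor of 70 limit what can be seen for Mt4, Slc30a1 and other dim genes.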
